A study of Mus musculus with 16 samples.

Results

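The Slc25a genes encode the mitochondrial solute carriers. They were taken here as every gene name of the array design that begins with Slc25a and ends in a number, with 1 name not reported here, and each gene was represented by its probe with the highest mean signal. This gave 46 genes of 34650 gene names. The arrays measured RNA of the gastrocnemius, the large calf muscle, from male C57BL6 littermates aged 8 to 16 weeks, 3 Eif6+/+ mice (WT) and 3 Eif6+/− mice (Het). Eif6 encodes an initiation factor that binds the large ribosomal subunit. No mouse received a treatment, and each array held RNA of 1 mouse. For each genotype there were 3 arrays of whole-muscle RNA, 3 arrays of polysome RNA (messages that carry several ribosomes, from pooled fractions of a sucrose gradient) and 2 arrays of monosome RNA (messages that carry 1 ribosome).

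Most carriers of this family sit in the inner mitochondrial membrane, which most metabolites cannot cross, and move nucleotides, phosphate, carboxylates, amino acids, cofactors and iron between cytosol and matrix. Most share a fold of repeated pairs of membrane helices and are made on cytosolic ribosomes, after which the TOM and TIM22 complexes insert them in the membrane. In skeletal muscle the ATP/ADP exchanger Slc25a4 and the phosphate carrier Slc25a3 supply oxidative phosphorylation, and Slc25a11 and Slc25a12 run the malate-aspartate shuttle that brings the reducing power of glycolysis into the matrix.

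Every value below comes from a probe of 60 bases. The probes of Slc25a4 and Slc25a39 are shown as the contrasting cases that several results rest on. The first lies in an unbroken stretch of the genome on the minus strand (mm9 chr8:47292828-47292887), is the brightest of the family and was well above background on every array. The second starts at base 451 of its transcript, spans 673 bases of the genome on the minus strand (mm9 chr11:102266350-102267022), so that it crosses a splice junction, and is among the dimmest. Each has 1 reading frame without a stop codon. Letters are in the transcript's sense.
Slc25a4: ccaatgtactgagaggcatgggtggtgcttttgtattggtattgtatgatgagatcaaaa
Slc25a39: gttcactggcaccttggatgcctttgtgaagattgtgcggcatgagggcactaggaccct

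Array brightness, the 75th percentile of the processed signal, ran from 42.3 to 150.1 scanner units on WT whole-muscle arrays, 13.5 to 33.0 on Het whole-muscle arrays, 24.1 to 66.1 on WT polysome arrays, 63.1 to 106.4 on Het polysome arrays and 12.7 to 36.4 on monosome arrays. The arrays came from 2 slides, each holding both genotypes. Eif6 itself was lower in every Het than in every WT array of whole muscle, with log2 intensities of 8.51 to 8.70 against 9.26 to 9.95. The skeletal muscle markers were bright on every array and all 12 were tested, whereas no liver marker and 1 of 6 brain and testis markers passed the filter. The mean log2 intensity of the 33 tested Slc25a genes, with all 16 arrays normalized together, lay between 6.64 and 7.10 on 14 of the arrays. It was 6.13 on the polysome array and 5.80 on the monosome array of WT mouse 2. Where leaving out this mouse changed a call or moved a value by over 1.5 times, the value without it is given for most of the main results below. A value printed alone can still have moved without this mouse.

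Of the 46 genes, 33 were well above background on all arrays of at least 1 group and were tested, and 17 of them were so on all 12 whole-muscle and polysome arrays. The 13 genes not tested were Slc25a2, Slc25a10, Slc25a13, Slc25a15, Slc25a18, Slc25a21, Slc25a30, Slc25a31, Slc25a43, Slc25a45, Slc25a48, Slc25a53 and Slc25a54. They include the testis ATP/ADP exchanger Slc25a31, the urea-cycle ornithine carrier Slc25a15 and the liver aspartate/glutamate exchanger Slc25a13. Of these, 10 were well above background on none of the 12 whole-muscle and polysome arrays, Slc25a30 on 1, and Slc25a13 and Slc25a45 on 4 each. Slc25a22, Slc25a35, Slc25a39 and Slc25a40 passed in 1 group alone, the group in which each was highest, so a difference of these genes from the other groups was partly fixed by the filter. The brightest probes were those of Slc25a4, Slc25a11, Slc25a3 and Slc25a12, in that order. Probes differ in binding, so this is no ranking of abundance.

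Few of these genes differed between Het and WT muscle by the threshold used, 2 in whole-muscle RNA and 5 in polysome RNA. A gene was called in a Het against WT comparison when the log2 difference exceeded 1 and the unadjusted limma p was under 0.05. The study's methods name such a size and p for the polysome data and, in general, an adjustment for multiple tests. The unadjusted p was applied here to every comparison of the genotypes, and adjusted p-values are given beside it. In whole muscle 0 of 33 genes were called higher (2.11% of all 15560 tested genes) and 2 were called lower (2.93% of all genes). With 75th-percentile scaling the split was 1 and 1. Without WT mouse 2 it was 1 higher and 3 lower (5.08% and 4.61% of all genes), and without WT mouse 1 or Het mouse 3 the calls numbered 1. In whole muscle the median difference was 0.13 against -0.01 for all genes, and 0.02 without WT mouse 1 and 0.04 without Het mouse 1. In polysome RNA 5 genes were called higher (3.88% of all genes) and 0 lower (1.57% of all genes). Of the 5, Slc25a35 and Slc25a40 had passed the filter through Het polysome RNA alone, so their calls were partly fixed by the filter. The same holds for the positive difference of Slc25a22, which was not called. Of the 33 differences 27 were positive, 81.8% against 52.0% of all genes, and the median was 0.35 against 0.03 for all genes. Among the 17 genes above background on all 12 arrays 16 differences were positive, with a median of 0.45 (51.4% positive and 0.02 for all 9582 such genes), and 15 and 0.30 without WT mouse 2. None of the 33 genes had an adjusted p under 0.05 in whole muscle, polysome RNA or loading, and of all 15560 genes 2, 0 and 0 did. An unadjusted p under 0.05 was found for 3, 11 and 5 of the 33 genes and for 1205, 2372 and 2590 of all genes. The methods' t-test called 1, 0 and 1 of the 33, and its share over all genes was not taken.

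**Figure D1:**
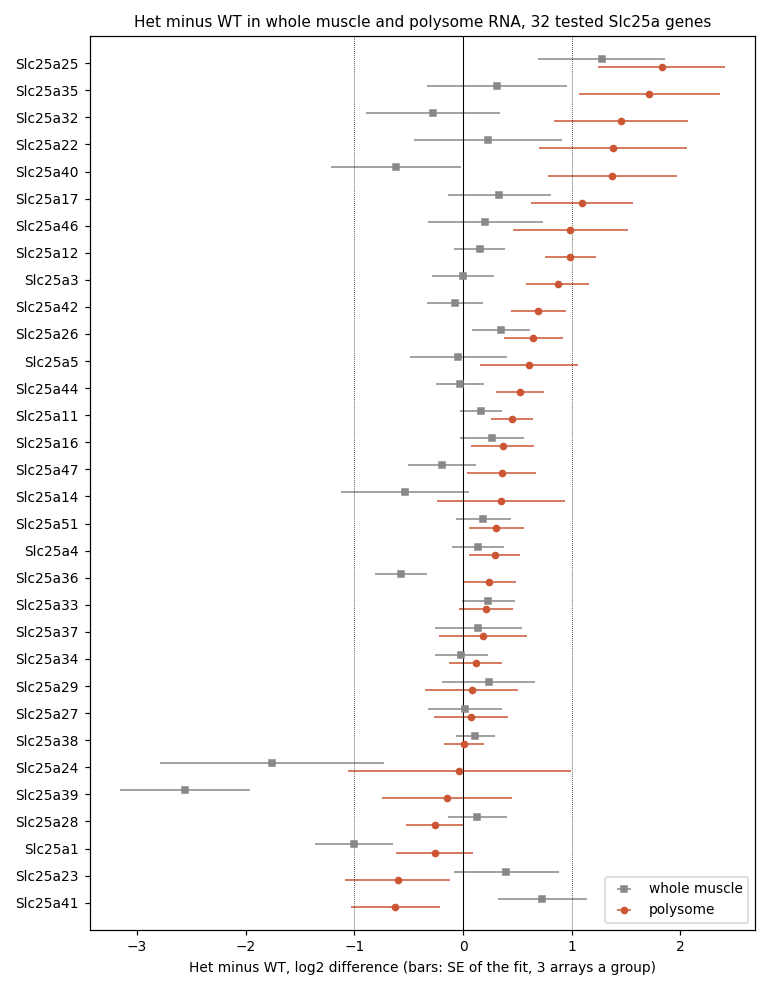
Log2 difference between Het and WT for 32 of the 33 tested Slc25a genes, in whole-muscle RNA (grey squares) and polysome RNA (red circles), with bars for the standard error of the fit of 12 arrays, 3 a group. Dotted lines mark a difference of 1 in either direction. In polysome RNA 26 of the 32 points lie right of 0, and in whole muscle 19 do.

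The polysome calls changed with single mice. Without both arrays of WT mouse 2 no gene was called in polysome RNA in either direction (1.97% and 2.22% of all genes were then called higher and lower), 25 of 33 differences were positive against 50.6% of all genes, and the median was 0.31 against 0.01. Het and WT polysome arrays also differed in other gene lists. The mean log2 intensity of 12 skeletal muscle markers was 15.33 to 15.54 on Het and 14.79 to 15.07 on WT polysome arrays, and that of 6 blood cell markers, among them the globin genes, was 9.02 to 9.43 on Het and 9.91 to 10.90 on WT. Of these, 4 of the 6 blood cell markers (Hba-a1, Hba-a2, Hbb-b2 and Alas2) were called lower and 1 of the 12 muscle markers (Atp2a1, 1.61) higher in Het polysome RNA. In Het whole muscle Hbb-b1 (-1.61) was called lower, but 4 of the 6 blood cell differences were positive there (median 0.11). The endothelial marker Tek (-1.80) was also called lower in Het whole muscle, where 4 of 6 endothelial differences were negative (median -0.31). Tek was well above background on 6 of the 12 whole-muscle and polysome arrays. Of 8 immune cell markers all 8 differences were negative on polysomes (median -0.82, 0 called) and 7 in whole muscle (median -1.09), where Lyz2, C1qa and C1qb were called lower in Het. The mean log2 intensity of these markers was 6.25 to 7.04 on Het and 6.93 to 8.03 on WT polysome arrays, and 6.32 to 6.46 on Het and 6.29 to 8.56 on WT whole-muscle arrays. Of 6 fibroblast markers 5 differences were negative in both kinds of RNA, with 0 called (medians -0.39 on polysomes and -0.34 in whole muscle). The muscle markers Ckm and Acta1 and the red-cell markers Hba-a1, Hbb-b2 and Alas2 were above background on all 16 arrays. The part of these shifts in the carrier differences was not tested, and in bulk muscle fewer cells of a type and less RNA per cell cannot be told apart. With array brightness as an added term 1 gene, not 5, was called. Without Het mouse 1, 2 or 3 the calls numbered 2, 2 and 1, and without WT mouse 3 they numbered 8.

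Polysome loading was taken for each mouse as its polysome level less its whole-muscle level, both as log2 intensities. It gave 2 genes called higher in Het (5.85% of all genes) and 1 called lower (7.8% of all genes). With 75th-percentile scaling the split was 2 and 2, and with array brightness as an added term 1 gene was called. Het polysome arrays were all brighter than Het whole-muscle arrays (63.1 to 106.4 against 13.5 to 33.0 scanner units). In WT the ranges overlapped (24.1 to 66.1 against 42.3 to 150.1). The median difference was 0.55 against 0.13 for all genes, and 27 of 33 differences were positive, 81.8% against 58.1% of all genes and 82.4% of 17 other mitochondrial transport genes. In loading the 6 blood cell markers had a median of -1.25, with Hba-a1, Hba-a2 and Alas2 called lower. The muscle markers Ckm (1.71), Acta1 (1.12) and Atp2a1 (2.80) were called higher, and 10 of 12 muscle differences were positive. The endothelial marker Tek (2.38) was called higher, from a list with 3 positive and 3 negative differences. The adipocyte marker Plin1 (-1.14) was called lower, from a list with 2 positive and 4 negative differences. The part of these markers in the carrier values was not tested. Over the 17 genes above background on all 12 arrays the median was 0.29, with 14 positive and 0 called, and 0.18 with 10 positive without WT mouse 2 (50.1% of all 9582 such genes were then positive). Without WT mouse 2 the median over the 33 genes fell to 0.23 against 0.05 for all genes, with 23 positive against 54.2% of all genes. The genotypes did not overlap in loading for 6 genes higher in Het (13% of all genes) and 1 lower (12.6% of all genes). Calls in loading numbered 5 without Het mouse 1 or WT mouse 1. The comparisons in whole muscle, polysome RNA and loading share arrays, so their calls are not separate evidence.

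**Figure D2:**
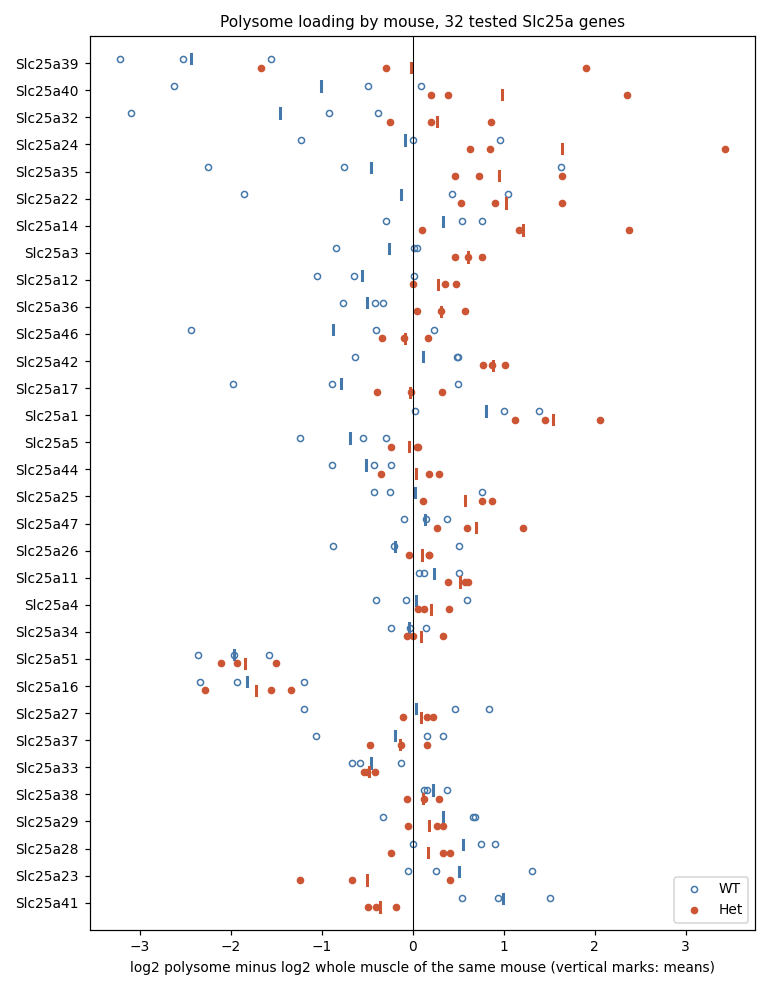
Polysome loading of each mouse for 32 of the 33 tested Slc25a genes, WT as open blue circles and Het as filled red circles, with vertical marks at the mean of 3 mice, ordered by the Het minus WT difference. Slc25a51 and Slc25a16 lie left of -1 in all 6 mice, and for Slc25a41, in the bottom row, the 3 WT mice lie right of 0 and the 3 Het mice left of it.

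Among the adenine nucleotide exchangers, the muscle form Slc25a4 did not differ between genotypes beyond the spread of the arrays. In whole muscle its log2 intensity was 16.15, 16.49 and 16.86 on WT mice 1 to 3 and 16.73, 16.86 and 16.33 on Het mice 1 to 3. On polysomes it was 16.76, 16.42 and 16.46 on WT and 16.86, 16.92 and 16.73 on Het. The groups overlapped in both kinds of RNA, with fitted differences of 0.14 (SE 0.24, adjusted p = 0.97) and 0.29 (SE 0.24, adjusted p = 0.53). The loading difference was 0.16 (SE 0.35) and 0.10 without WT mouse 2, and its sign turned to -0.18 under 75th-percentile scaling. Slc25a5, the exchanger of most other tissues, differed by -0.04 in whole muscle, 0.61 on polysomes and 0.65 in loading (SE 0.34), where the 3 Het mice lay above the 3 WT mice (-0.24 to 0.06 against -1.23 to -0.29, exact permutation p = 0.1, the smallest that 3 against 3 allows). The Slc25a5 differences were -0.33, 0.04 and 0.38 without WT mouse 2.

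Slc25a3, which imports the phosphate needed for ATP synthesis, overlapped between genotypes in whole muscle (11.93, 12.06 and 12.40 on WT, 12.22, 11.95 and 12.22 on Het). On polysomes it was 11.98, 11.22 and 12.42 on WT and 12.68, 12.72 and 12.82 on Het. Every Het polysome array was above every WT array, by a mean of 0.87 (SE 0.29, adjusted p = 0.26, exact permutation p = 0.1). Loading differed by the same amount (0.87, SE 0.35, adjusted p = 0.28), with 0.46 to 0.76 in Het and -0.84 to 0.05 in WT mice. A further probe of Slc25a3 gave a polysome difference of 1.24 and a loading difference of 1.08. Without WT mouse 2 the loading difference of the brighter probe was 0.58. Its polysome difference was 0.54 without that mouse, 1.09 on slide 1 and 0.35 on slide 2.

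The ATP-Mg/phosphate exchangers adjust the matrix pool of adenine nucleotides, and their tested members did not move as a group. Slc25a25, a calcium-regulated member, was the gene with the largest polysome difference in the family. Its log2 intensity in whole muscle was 6.93, 6.73 and 7.55 on WT and 8.58, 7.48 and 8.97 on Het, and on polysomes 6.69, 6.30 and 8.31 on WT and 8.69, 8.24 and 9.84 on Het. Mouse 3 was the highest of its genotype in both kinds of RNA, and the lowest Het array overlapped the highest WT array in each. The difference was 1.28 in whole muscle (SE 0.58, adjusted p = 0.59, not called, though called at the same 1.28 with mouse as a replicate block) and 1.83 on polysomes (SE 0.58, adjusted p = 0.25, called), a 3.55-fold higher polysome level. A further probe gave 0.95 and 2.32. The polysome difference stayed positive in all 19 alternatives, between 0.73 on slide 2 alone and 2.43 without WT mouse 3, and was called in 16 of them. Without WT mouse 2 it was 1.43 and not called. Monosome RNA gave 6.31 and 6.34 on WT and 7.95 and 8.93 on Het, without overlap, so Slc25a25 was on average higher in Het in each kind of RNA, while its loading difference was 0.55 (SE 0.42, adjusted p = 0.52) and 0.32 without WT mouse 2. The further probe gave a loading difference of 1.37.

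Slc25a41, an exchanger that lacks the calcium-binding part, went the other way in loading. Its loading was 1.51, 0.54 and 0.94 in WT mice 1 to 3 and -0.49, -0.41 and -0.18 in Het mice 1 to 3. All WT mice held relatively more of this message on polysomes than in whole muscle, and all Het mice held less. The difference was -1.35 (SE 0.34, adjusted p = 0.13, exact permutation p = 0.1) and it was called, with a range of -1.66 to -0.52 over the alternatives. It combined a whole-muscle difference of 0.73 (4.21, 5.83 and 5.05 on WT against 5.65, 5.46 and 6.17 on Het) and a polysome difference of -0.62 (5.72, 6.36 and 5.98 against 5.16, 5.05 and 5.99), neither of which was called. The whole-muscle difference was 1.13 and called without WT mouse 2.

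The nearest family neighbour of Slc25a41 in the genome is another ATP-Mg/phosphate exchanger, Slc25a23. Their probes lie 11.5 kb apart on the minus strand of chromosome 17. Slc25a23 had the next lowest loading difference in the family, -1.001 (SE 0.54, adjusted p = 0.39), from 0.26, -0.06 and 1.31 in WT and -0.67, 0.42 and -1.23 in Het mice, which overlapped. Its polysome levels were 4.70, 5.33 and 5.48 on WT and 4.70, 4.33 and 4.68 on Het, a difference of -0.60. In monosome RNA both genes were called lower in Het, Slc25a41 at 6.11 and 7.96 on WT against 5.16 and 5.41 on Het, and Slc25a23 at 5.75 and 7.22 against 4.97 and 4.93. The highest of these values in each case was the monosome array of WT mouse 2, without which the Slc25a41 monosome difference went from -1.75 to -0.82 and that of Slc25a23 from -1.53 to -0.80, and neither was called. The remaining pairs of family members with probes under 100 kb apart, Slc25a29 with Slc25a47, Slc25a54 with Slc25a24 and Slc25a43 with Slc25a5, held 1 gene that was called in any comparison, Slc25a5. Slc25a24, a further ATP-Mg/phosphate exchanger, was 6.20, 4.59 and 6.04 on WT and 5.22, 4.69 and 1.64 on Het whole-muscle arrays, of which Het mice 2 and 3 were not well above background. The difference was -1.76 (SE 1.03, adjusted p = 0.69, not called), and -2.27 and called without WT mouse 2. Its WT polysome levels ranged from 3.36, not well above background, to 7.16, and the polysome difference of -0.04 became -1.12 without that mouse. The loading difference of 1.72 had an SE of 0.86 (adjusted p = 0.36).

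**Figure D3:**
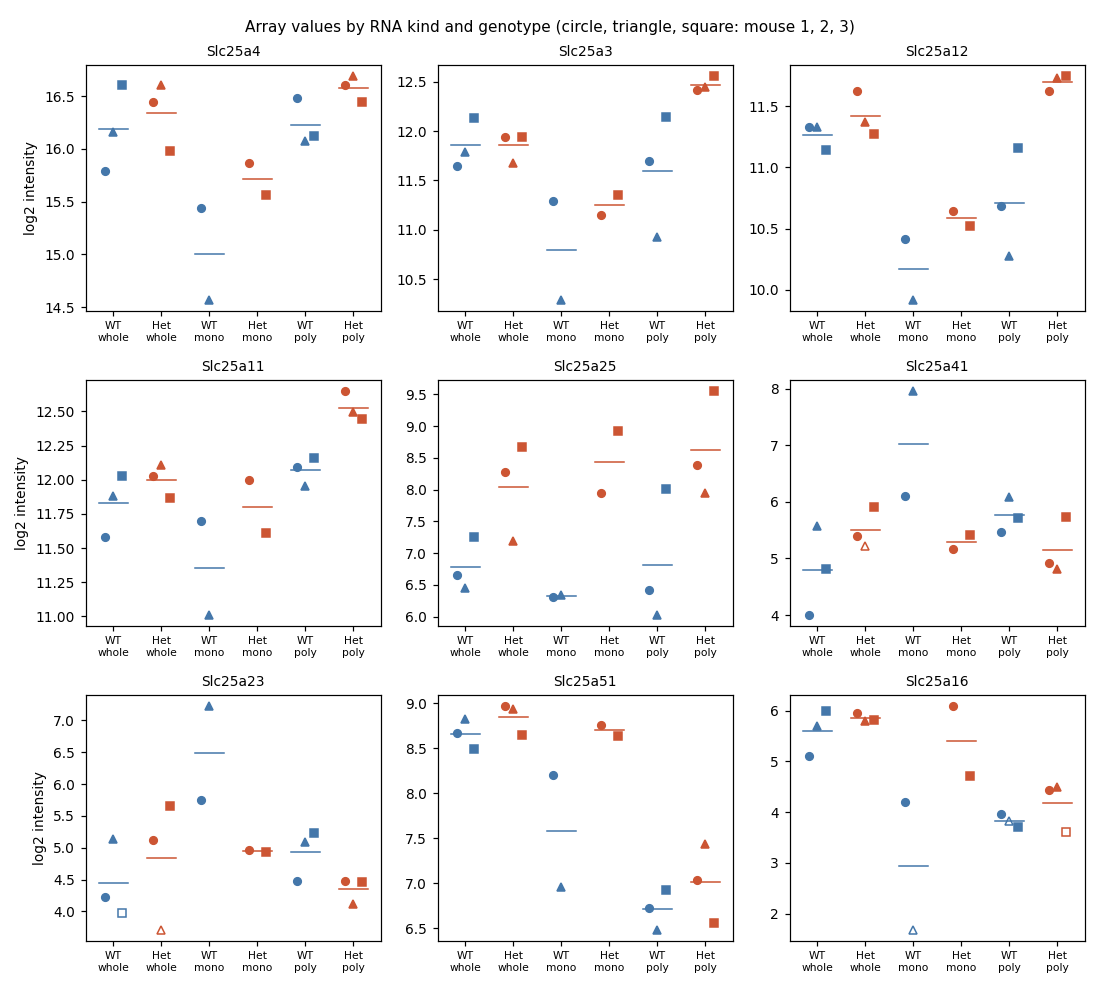
Log2 intensity of 9 Slc25a genes on each of the 16 arrays, normalized together, by RNA kind and genotype (blue WT, red Het), with circles, triangles and squares for mice 1, 2 and 3, open where the probe was not well above background, and lines at the group means; each panel has its own vertical scale. Slc25a51 and Slc25a16 are lower on the polysome arrays than on the whole-muscle arrays of both genotypes, and Slc25a25 has a higher mean in Het in each kind of RNA.

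Slc25a11, Slc25a12 and Slc25a22, the shuttle and glutamate carriers, had positive polysome differences, of which none was called. Slc25a12, the calcium-regulated aspartate/glutamate exchanger of muscle and brain, was 10.97, 10.57 and 11.44 on WT and 11.90, 12.01 and 12.02 on Het polysome arrays. The groups did not overlap, and the 3 Het arrays lay within a narrower span than the WT arrays. The difference was 0.99 (SE 0.24, adjusted p = 0.20), just under the size threshold, and it was 0.77 without WT mouse 2, 1.13 on slide 1 and 0.58 on slide 2. In whole muscle the values were 11.61, 11.61 and 11.43 on WT and 11.90, 11.66 and 11.55 on Het, and the loading difference was 0.83 (SE 0.37, adjusted p = 0.31). Slc25a11, which exchanges oxoglutarate for malate, was 12.37, 12.23 and 12.43 on WT and 12.92, 12.76 and 12.71 on Het polysome arrays, also without overlap, a difference of 0.45 (SE 0.19, adjusted p = 0.31). The glutamate carrier Slc25a22 was 4.55, 1.54 and 4.52 on WT and 5.09, 5.40 and 4.26 on Het, a difference of 1.38 (SE 0.68) that was not called. Het mouse 3 overlapped the WT arrays, and without WT mouse 2, which was not well above background, the difference was 0.38.

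Slc25a1, which exports citrate for lipid synthesis, was, apart from Slc25a11, the only di- or tricarboxylate carrier tested, and it was called lower in Het whole muscle. It was 6.45, 4.86 and 5.55 on WT and 4.82, 4.83 and 4.20 on Het whole-muscle arrays. All Het values lay below all WT values, WT mouse 2 by a small margin, and 1 of the 3 Het arrays was well above background. The difference was -1.003 (SE 0.36, adjusted p = 0.49, called), and 11 of 17 alternatives left it below the threshold. On polysomes it was 6.47, 6.25 and 6.55 on WT and 5.94, 6.29 and 6.26 on Het. Its polysome excess over whole muscle was 1.12, 1.46 and 2.06 in Het mice, a mean of 1.55 (SE 0.32, adjusted p = 0.038), and 0.02, 1.39 and 1.004 in WT mice, a mean of 0.81 (SE 0.32, adjusted p = 0.11) and 0.51 without WT mouse 2. The loading difference between genotypes, 0.74 (SE 0.45), was not called.

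Of the amino acid carriers, Slc25a29 (basic amino acids), Slc25a38 (glycine for haem synthesis) and Slc25a44 (branched-chain amino acids) were tested and none was called in whole muscle, polysome RNA or loading. The polysome difference of Slc25a44 was 0.52 (SE 0.22), but a further probe gave -0.30, so its direction was not settled. Slc25a38 was among the steadiest genes of the family, with log2 intensities of 7.67 to 8.08 over the 12 arrays and differences of 0.11 in whole muscle and 0.01 on polysomes.

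Cofactor and nucleotide carriers formed the largest group, with 9 tested genes, all with a positive polysome difference (median 0.36). Slc25a32, which carries folate and flavin nucleotides, was 4.51, 1.71 and 4.41 on WT and 4.99, 5.31 and 4.69 on Het polysome arrays. The groups did not overlap, and the WT mouse 2 array, not well above background, was far below the other arrays. The difference was 1.45 (SE 0.61, adjusted p = 0.31, called) and 0.54 without WT mouse 2, when it was not called. Its loading difference of 1.73 (SE 0.72, adjusted p = 0.29, called) became 0.92 and was not called without WT mouse 2. Without pairing the arrays of a mouse it was also 1.73 but not called. The whole-muscle arrays of Het mice 2 and 3 (4.45 and 4.49) were not well above background for Slc25a32. Slc25a17, the peroxisomal coenzyme A carrier, was 6.96, 4.69 and 6.20 on WT and 7.23, 6.95 and 6.96 on Het polysome arrays, a difference of 1.09 (SE 0.47, adjusted p = 0.31, called) that was 0.46 without WT mouse 2.

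Slc25a42, the mitochondrial coenzyme A importer, was 8.82, 8.01 and 8.72 on WT and 9.34, 9.36 and 8.93 on Het polysome arrays. Its loading was 0.88, 1.01 and 0.78 in Het and 0.49, -0.64 and 0.50 in WT mice. Neither measure overlapped between genotypes, and neither was called (differences of 0.69 with SE 0.26 and 0.77 with SE 0.39). They were 0.44 and 0.39 without WT mouse 2. Slc25a36, a pyrimidine nucleotide carrier, had loadings of -0.77, -0.32 and -0.41 in WT and 0.31, 0.05 and 0.58 in Het mice, again without overlap (difference 0.81, SE 0.30, adjusted p = 0.25, not called). Its whole-muscle levels were 4.26 to 5.09 on Het, where mice 2 and 3 were not well above background, against 5.24 to 5.31 on WT, and the polysome difference was 0.24. The related pyrimidine carrier Slc25a33 had a loading difference of -0.02 (SE 0.29), or -0.08 without WT mouse 2, and a further probe for it gave 0.71 (adjusted p = 0.31). By that probe polysomes lay below whole muscle by -1.40 in WT (limma adjusted p = 0.011), which passes the threshold used below for such ratios. The brighter probe gave -0.46 in WT, and in Het the further and the brighter probe gave -0.69 and -0.48. Slc25a26, which imports S-adenosylmethionine, was higher in every Het than every WT polysome array by a mean of 0.65 (SE 0.27), which was 0.37 without WT mouse 2 and 0.25 by a further probe.

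The probes of Slc25a39 and Slc25a40 were dim, and each passed the filter through the 1 group in which it was high. Slc25a39, the glutathione importer, was 5.86, 5.60 and 5.71 on WT and 3.97, 1.66 and 3.86 on Het whole-muscle arrays. It was well above background on all WT and no Het arrays, so that WT exceeded Het by at least 2.51-fold (adjusted p = 0.29), a bound against the dimmest signal measurable on each Het array. The measured difference was -2.56 (SE 0.60), called, and ran from -2.96 to -0.69 over the alternatives. All Het whole-muscle arrays were also dimmer than all WT ones (13.5 to 33.0 against 42.3 to 150.1 scanner units), and the part of this was not tested. In WT polysome RNA Slc25a39 was not well above background on any array, at least 4.79-fold below WT whole muscle (adjusted p = 0.037). This ratio of -2.43 was -2.87, from fewer arrays, and not called without WT mouse 2. Since the gene was tested only through WT whole muscle, both differences were partly fixed by the filter. The loading difference of 2.41 (SE 0.90, adjusted p = 0.25, called) therefore set groups against each other of which 1 array of 6 in Het and none of the 3 WT polysome arrays was measured above background. Adding array brightness to the fit left a difference of 0.41. Slc25a40, a close relative, was 3.41, 1.52 and 3.25 on WT and 4.37, 4.16 and 3.78 on Het polysome arrays, a difference of 1.37 (SE 0.59, adjusted p = 0.32, called) that was 0.77 and not called without WT mouse 2. It was well above background on no Het whole-muscle array and on 1 WT polysome array.

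Neither of the mitoferrins, which import iron, was called in whole muscle or on polysomes. Slc25a37, the form of red cell precursors, differed by 0.14 in whole muscle and 0.18 on polysomes. A further probe for it gave -0.46 and -0.56, and the polysome value was -0.28 without WT mouse 2. Slc25a28 differed by 0.13 and -0.25, and its polysome value was -0.06 without WT mouse 2. Slc25a35, with no settled substrate, was 3.93, 1.85 and 4.66 on WT and 5.30, 5.26 and 5.02 on Het polysome arrays, a difference of 1.72 (SE 0.65, adjusted p = 0.28, called) that fell to 0.90 without WT mouse 2. This gene had passed the filter through Het polysome RNA alone, which partly fixed the difference. The other genes with no settled substrate, Slc25a34 and Slc25a47, differed by 0.12 and 0.35 on polysomes, or 0.28 and 0.66 without WT mouse 2. The uncoupling protein relatives Slc25a14 and Slc25a27 differed by 0.35 and 0.08, or -0.13 and -0.11 without WT mouse 2. Slc25a46, an outer membrane protein that shapes mitochondria, was 8.50, 6.05 and 8.40 on WT and 8.77, 8.82 and 8.32 on Het polysome arrays, a difference of 0.99 (SE 0.53) that was not called and in which the 3 Het arrays overlapped those of WT mice 1 and 3. It was 0.19 without WT mouse 2.

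Within each genotype the members differed widely in how far they sat on polysomes relative to whole muscle, and here a call needed both an adjusted p under 0.05 and a mean ratio of more than 1 in size on the log2 scale. In WT, 0 of 33 genes were called above whole muscle (7.24% of all genes) and 3 below (8.16% of all genes), and with 75th-percentile scaling the split was 1 and 4. In Het, 1 was called above (2.9% of all genes) and 2 below (3.67% of all genes). Leaving out any 1 Het mouse left 0 genes called in Het, and leaving out WT mouse 3 left 1 in WT. The median ratio in WT was -0.19 against 0.08 for all genes, and 0.10 against 0.16 without WT mouse 2. Without this mouse the WT split was 1 above and 2 below (6.74% and 7.39% of all genes), with Slc25a41 called above (1.22, from 0.99 with all mice). The mean ratios ran from -2.43 to 0.99 in WT and from -1.85 to 1.64 in Het. Slc25a51, the NAD importer, was lowest among the genes measured on all arrays, with ratios of -1.96, -2.35 and -1.58 in WT and -1.93, -1.50 and -2.11 in Het mice. All 6 mice lay between -2.35 and -1.50, with means of -1.96 (SE 0.24, adjusted p = 0.0053) and -1.85 (SE 0.24, adjusted p = 0.015), so the polysome signal was 3.90-fold and 3.59-fold below that of whole muscle. The genotypes differed by 0.12 (SE 0.34, adjusted p = 0.87). A further probe at base 4377 of its transcript, against base 1692 for this one, gave smaller ratios of -1.12 in WT and -0.67 in Het, neither of them called.

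Slc25a16, linked to coenzyme A uptake, behaved likewise, with ratios of -1.19, -1.93 and -2.34 in WT and -1.56, -1.34 and -2.28 in Het mice. Its means were -1.82 (SE 0.30, adjusted p = 0.012) and -1.72 (SE 0.30, adjusted p = 0.026), and 1 polysome array of each genotype was not well above background. With normexp background correction these ratios shrank to -0.62 and -0.65 and were not called. On slide 1 the Slc25a51 ratios were -1.90 in WT and -1.76 in Het, and on slide 2 they were -1.83 and -1.98. In contrast, the shuttle carrier Slc25a11 was above 0 in all 6 mice, with means of 0.24 in WT and 0.52 in Het, also not called.

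Polysome RNA was then set against monosome RNA over both genotypes, with all 16 arrays normalized together. Of the 33 genes, 5 were called higher on polysomes (10.9% of all genes) and 2 lower (6.26% of all genes), and the median was 0.25 against 0.20 for all genes. With 75th-percentile scaling the split was 4 and 3. Without WT mouse 2 the split was 3 and 3 (11% and 7.7% of all genes), with a median of -0.02 against 0.09 for all genes. Without Het mouse 1 no gene was called, without Het mouse 3 or WT mouse 3 the calls numbered 2, and without WT mouse 1 they numbered 12. The ATP/ADP exchangers Slc25a4 and Slc25a5 and the phosphate carrier Slc25a3 were all called higher on polysomes. Slc25a4 was 16.08 to 16.69 on the 6 polysome arrays and 15.44, 14.57, 15.86 and 15.56 on the monosome arrays, which did not overlap. The difference was 1.05 (SE 0.24, adjusted p = 0.0076), a 2.06-fold higher polysome signal, and 0.87 without WT mouse 2, when it fell below the size threshold. Slc25a5 differed by 1.60 (SE 0.49, adjusted p = 0.030), kept its call in 6 of 14 alternatives and ranged in them from 0.76 to 2.54 (1.18 without WT mouse 2). Slc25a3 differed by 1.01 (SE 0.26, adjusted p = 0.014), which was 0.93 without WT mouse 2 and 0.98 with mouse as a replicate block, under the size threshold in both. Slc25a12 (0.83, SE 0.20) and Slc25a11 (0.72, SE 0.19) passed the adjusted p but not the size. The remaining calls, Slc25a22 and Slc25a40, had passed the filter through Het polysome RNA alone and were not well above background on any monosome array. Neither mean over the 6 polysome arrays exceeded the mean of the dimmest signals measurable on the monosome arrays, so no fold is given.

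**Figure D4:**
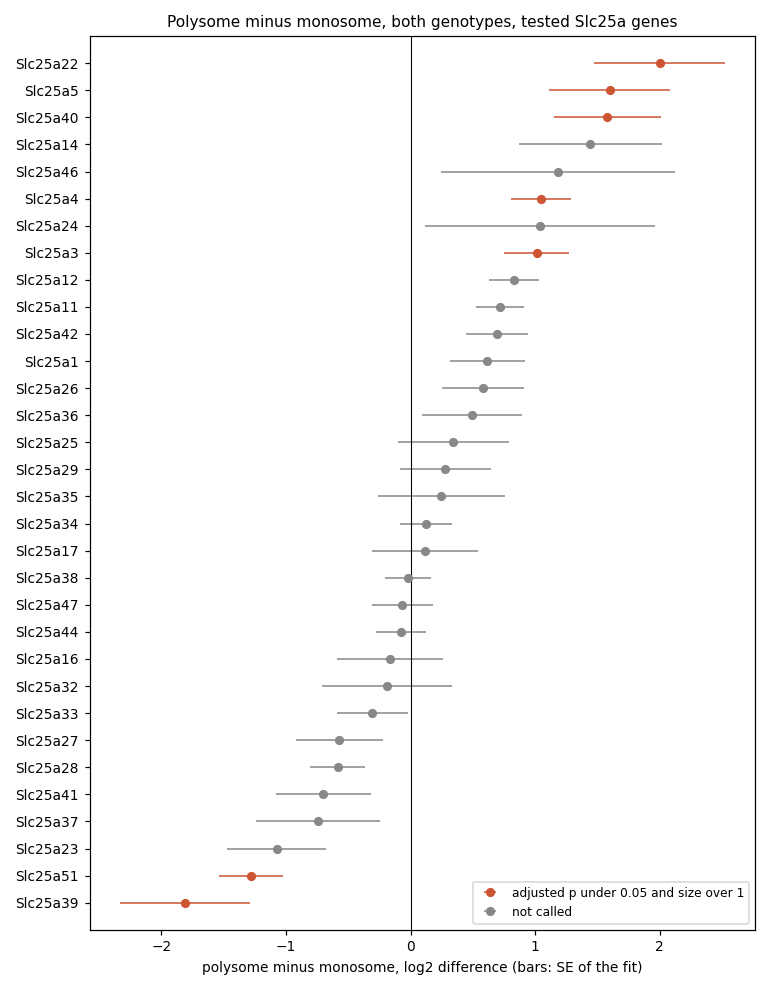
Polysome minus monosome log2 difference, averaged over both genotypes, for 32 of the 33 tested Slc25a genes, with bars for the standard error of the fit of 16 arrays; red points passed an adjusted p under 0.05 with a size over 1. The red points on the right include Slc25a3, Slc25a4 and Slc25a5, as well as Slc25a22 and Slc25a40, which were at background on all monosome arrays, and those on the left are Slc25a51 and Slc25a39.

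Slc25a51 was called lower on polysomes than on monosomes too, by a mean of -1.28 (SE 0.26, adjusted p = 0.0041). Its log2 intensity was 6.49 to 7.44 on polysome arrays and 8.21, 6.96, 8.76 and 8.64 on monosome arrays, of which the WT mouse 2 value overlapped the polysome range. Slc25a39 was called lower (-1.81, SE 0.52, adjusted p = 0.024), with 1 polysome array and 2 monosome arrays well above background, and was -1.41 and not called without WT mouse 2.

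Monosome RNA compared between genotypes with 2 mice each gave 10 genes called higher in Het (16.3% of all genes) and 2 lower (11.9% of all genes), none of them at an adjusted p under 0.05. With mouse as a replicate block Slc25a26 (1.09) was not called and Slc25a42 (1.01) was. An exact test of 2 against 2 cannot go below 0.333. The genes called higher were Slc25a46 (3.59), Slc25a32 (2.82), Slc25a16 (2.46), Slc25a25 (2.11), Slc25a37 (1.86), Slc25a36 (1.79), Slc25a33 (1.49), Slc25a44 (1.14), Slc25a51 (1.11) and Slc25a26 (1.11). Slc25a32 was not well above background on either WT array, so that Het exceeded WT by at least 2.08-fold (adjusted p = 0.088). Most of this count rested on the monosome array of WT mouse 2. Slc25a46 was 8.26 and 1.49 on WT and 8.62 and 8.31 on Het arrays, so that WT mouse 1 was near both Het mice and the difference without WT mouse 2 was 0.21. Leaving out 1 mouse leaves a genotype with 1 monosome array, assumed to vary like the other groups. Without WT mouse 2 the differences of Slc25a25 and Slc25a32 were 2.13 and 1.68, and those of the other 8 genes lay between 0.13 and 1.20. Without WT mouse 1 the calls numbered 21, and without Het mouse 1 or Het mouse 3 they numbered 5 and 6.

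Other genes of mitochondrial transport were listed for comparison. Of the relatives outside the name rule, Ucp2, Ucp3, Mtch1 and Mtch2 were tested and Ucp1, the brown fat uncoupling protein, was above background on no array. Ucp3, the uncoupling protein of skeletal muscle, was called higher in Het on polysomes (1.26, SE 0.46, adjusted p = 0.27) and in loading (2.01, SE 0.51, adjusted p = 0.13), and Ucp2 was called lower in whole muscle (-1.48, SE 0.62). Of 17 tested genes of other mitochondrial membrane transport, such as the pyruvate carrier, the calcium uniporter and the VDAC pores, 1 was called higher on polysomes and in loading and 0 lower, with median differences of 0.18 and 0.44 beside 0.35 and 0.55 for the Slc25a genes. Of the 8 genes of the import machinery for carriers, 0 were called on polysomes, where the median was -0.02, and 1, Timm10b, was called lower in loading (-1.02, SE 0.43).

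On polysomes against monosomes the other transport genes had a median of 0.61, with Vdac2, Vdac3 and Letm1 among those called higher (1.24, 1.27 and 1.12) and 0 called lower. The import machinery had Timm10 called higher (1.08, SE 0.19) and 0 lower.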

How the data were processed

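RNA of whole gastrocnemius, pooled polysome fractions and monosomes was hybridised in 1 colour to Agilent mouse arrays. The authors deposited scanner files of Agilent Feature Extraction 11.0.1.1, in which each spot has a background-subtracted processed signal intensity, and a table of log2 values that the authors had quantile-normalized.

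Spots marked as outliers were left out, spots of a probe were averaged on the log2 scale, and log2 processed intensities were quantile-normalized, over 12 arrays (whole muscle and polysomes) or, where monosome RNA was compared, over all 16. Tested probes had at least 1 group in which each array was well above background (19812 and 20250 probes). Linear models were fitted in limma 3.58.1 (R 4.3.3), p-values were adjusted over these probes by the method of Benjamini and Hochberg, and the fits were tested on simulated data. SE is the standard error of the fit. Fold changes are powers of 2 of the log2 differences. Single genes were compared by 2-sided exact permutation tests. Dim groups received lower bounds, from the mean of the higher of the probe's own signal and the lowest signal well above background on each array. Counting intervals do not apply to arrays, whose number limits the precision. No 2 arrays held identical values.

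Loading paired the arrays of a mouse since per the series' design text all kinds of RNA came from the muscle of each mouse. Deviations from the group means of a mouse's polysome and whole-muscle arrays correlated at 0.06 to 0.49 across probes in the 6 mice.

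The members and gene lists were chosen with earlier results of these data known. Array values are given for members called in a comparison or with the 6 brightest probes, at most 12 by size of the loading difference. The array values of Slc25a1, Slc25a4, Slc25a11, Slc25a16, Slc25a17, Slc25a25 and Slc25a51 were added after their values were seen. Those of Slc25a24, which was called in no comparison with all mice, were given outside this rule. Of the 46 probe accessions 45 were found in the RefSeq gene table, all with the same symbol. Positions are those of the files (mm9), and exon and UTR annotation was not used here. Alternatives covered filters, scaling, background correction, the authors' table, slide, brightness, test, pairing, probe and each mouse. Some genes are counted but not named or plotted here.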

Additional observations from a re-analysis of the deposited data

Results flagged for a closer look

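In 2 genes, picked for this pattern, every WT mouse had a loading of one sign and every Het mouse of the other. The share of all genes with such opposite signs was not taken. By the looser condition of no overlap between genotypes in loading, all genes gave 13% (higher in Het) and 12.6% (lower), and the family 6 and 1 of 33. For Slc25a41 the loading was above 0 in 3 of 3 WT mice and below 0 in 3 of 3 Het mice, and the Het minus WT difference was -1.35 (limma adjusted p = 0.13). For Slc25a36 it was below 0 in 3 of 3 WT mice and above 0 in 3 of 3 Het mice, with a difference of 0.81 (limma adjusted p = 0.25). The whole-muscle arrays of Het mice 2 and 3 were not well above background for Slc25a36, nor that of Het mouse 2 for Slc25a41. Neither passed adjustment over all probes. Slc25a41 was called under 12 of 17 alternatives. It was not called with normexp background correction, the authors' table, slide 1 or slide 2 alone, or array brightness as a term.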

How the results depend on the processing

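Counts of called genes moved with the processing, and most single differences kept their direction. Whole muscle (2 calls) gave 0 with normexp, 0 with the authors' table, 0 on slide 1 alone, and 1 with probes above background on all arrays, 1 with 16 arrays together and 1 by the t-test. Polysome RNA (5) gave 2 when unfiltered, 2 with a slide term, 1 each with probes above background on all arrays, normexp, the authors' table, slide 1 alone and brightness as a term, and 0 on slide 2 alone and by the t-test. Loading (3) gave 1 each without a filter, with the authors' table, slide or brightness as a term, slide 2 alone and the t-test, and 0 with probes above background on all arrays, normexp and slide 1 alone. The WT ratio (3) gave 5 with 75th-percentile scaling, 1 each with probes above background on all arrays, normexp, the authors' table and the t-test, and 0 on either slide alone. The Het ratio (3) gave 1 each without a filter and with the latter probes, normexp, the authors' table and slide as a term, and 0 with brightness as a term and on either slide alone. Monosome RNA (12) gave 3 with probes above background on all arrays, 4 with normexp, 5 with the authors' table, 1 on slide 1, 21 on slide 2 and 0 by the t-test. Polysome against monosome (7) gave 3 with probes above background on all arrays, 2 with normexp, 3 with the authors' table, 0 on slide 1 and 15 on slide 2. The probes above background on all arrays numbered 17 or, with monosomes, 12 in the family, and a slide alone held 1 or 2 arrays a group, in monosome RNA 1 of each genotype (WT mouse 2 on slide 2), with the spread taken from the other groups. The causes of the other shifts were not tested.

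Leaving out each mouse gave 1 to 4 calls in whole muscle, 0 to 8 on polysomes, 2 to 5 in loading, 1 to 3 in the WT and 0 to 3 in the Het ratio, 2 to 21 in monosome RNA and 0 to 12 in polysome against monosome. With mouse as a replicate block the counts were 3 in whole muscle, 5 on polysomes, 12 in monosome RNA and 7 in polysome against monosome, and without the replicate block they were 3 in loading and 3 in each ratio. The block added the calls of Slc25a25 in whole muscle (1.28), Slc25a32 in loading (1.73), Slc25a42 in monosome RNA (1.01) and Slc25a14 in polysome against monosome (1.45), removed those of Slc25a40 in loading (1.99), Slc25a26 in monosome RNA (1.09) and Slc25a3 in polysome against monosome (0.98), and changed no other call of the family. Of 756 values of called genes and the brightest genes under alternatives 4 changed sign: the Slc25a4 loading difference (-0.18 with 75th-percentile scaling, -0.038 on slide 2, and -0.066, without WT mouse 3, to 0.43 when leaving out each mouse) and Slc25a36 in monosome RNA (-0.0019 on slide 1). Over all 33 tested genes, leaving out WT mouse 2 turned the sign of 3 differences in whole muscle, 4 on polysomes, 6 in loading, 8 in monosome RNA, 6 in the WT ratio and 3 in polysome against monosome. Of the 756 values 493 kept their direction and side of the threshold. The 13 genes near background could not be compared at this signal.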
